A study of Mus musculus with 3 samples.

Results

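Inflammasome and gasdermin genes were followed in mouse plasmacytoid dendritic cells that had been exposed to compounds of natural medicines before a chemokine stimulus. The set held 10 genes taken by their platform gene symbol, Nlrp3, Nlrc4, Aim2, Pycard, Casp1, Casp4, Gsdmd, Gsdme, Gsdma and Gsdma2, out of 19505 genes with a symbol on the array. The genes were chosen by name with the log2 differences between these arrays known, among them the 2-fold difference of Gsdma2 between oxymatrine and control. The levels and differences of the 10 genes are therefore a description, and none of them was tested.

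Plasmacytoid dendritic cells, the dendritic cells best known for making type I interferon, were grown from bone marrow of wild-type male BALB/c mice aged 4 to 5 weeks over 6 to 9 days in the presence of 100 ng/mL Flt3 ligand. CpG oligodeoxynucleotides, which engage TLR9, served to mature them, and mature cells were sorted. The groups were cells kept for 12 h with the Astragalus saponin astragaloside IV, cells kept for 12 h with the Sophora alkaloid oxymatrine, and control cells. Both compounds were followed by 1 h of CCL21, the ligand of the chemokine receptor CCR7. The labels give no doses and do not say whether control cells had CCL21 or a vehicle, so a compound and the CCL21 step cannot be told apart in a difference from control. The study addressed how both compounds suppress the migration of these cells. Each group had 1 array and no replicate, so no p-value or standard error exists for any value below. The number of mice behind an array, and whether marrow was pooled, are not stated in the labels.

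An inflammasome is a protein platform that forms in the cytosol when a sensor meets a danger signal. The sensor gathers the adaptor ASC, which draws in caspase-1, and caspase-1 cuts the precursors of IL-1 beta and IL-18 as well as the pore protein gasdermin D. The freed end of a gasdermin opens pores in the plasma membrane, through which the cytokines leave and the cell may die by pyroptosis. Priming through toll-like receptors raises the RNA of some parts, such as Nlrp3 and Il1b, while the activation of the platform itself is a change in proteins that RNA levels do not report.

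Levels are the authors' log2 expression values, 1 per probe set, so a difference of 1 is 2-fold. A gene counted as above background where its mean over the 3 arrays reached a log2 level of 5.28, which is the 95th percentile of 1410 genes for olfactory or vomeronasal receptors, normally unused in blood cells. By this measure 9 of the 10 genes and 10671 of all genes were above background, and Gsdma was not. Levels of different genes come from different probes and are not set against each other. The larger differences are set beside an SD, that of the same difference among the 533 or 534 genes in the gene's level bin. This SD describes the scatter of equally bright genes and does not replace replicates. It includes genes with exactly equal values in both arrays, which make it narrower. These were 27.7% of all genes for astragaloside IV against control, 24.4% for oxymatrine against control and 26.7% between the treated arrays. How such ties arose in the deposited values was not tested, so a tie is not read as an unchanged gene.

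The RNA of the core machinery was present in all 3 arrays and lay within narrow limits. Nlrp3, Aim2, Pycard, Casp1, Casp4 and Gsdmd spanned between 0.00 and 0.24 log2 units over the arrays. Gsdma2, a gasdermin of the skin and gut family, was the exception, 2.62-fold higher in the oxymatrine array than in control. Gsdme spanned 0.33 and Nlrc4 0.50 log2 units, both at levels where genes scatter more widely.

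**Figure D1:**
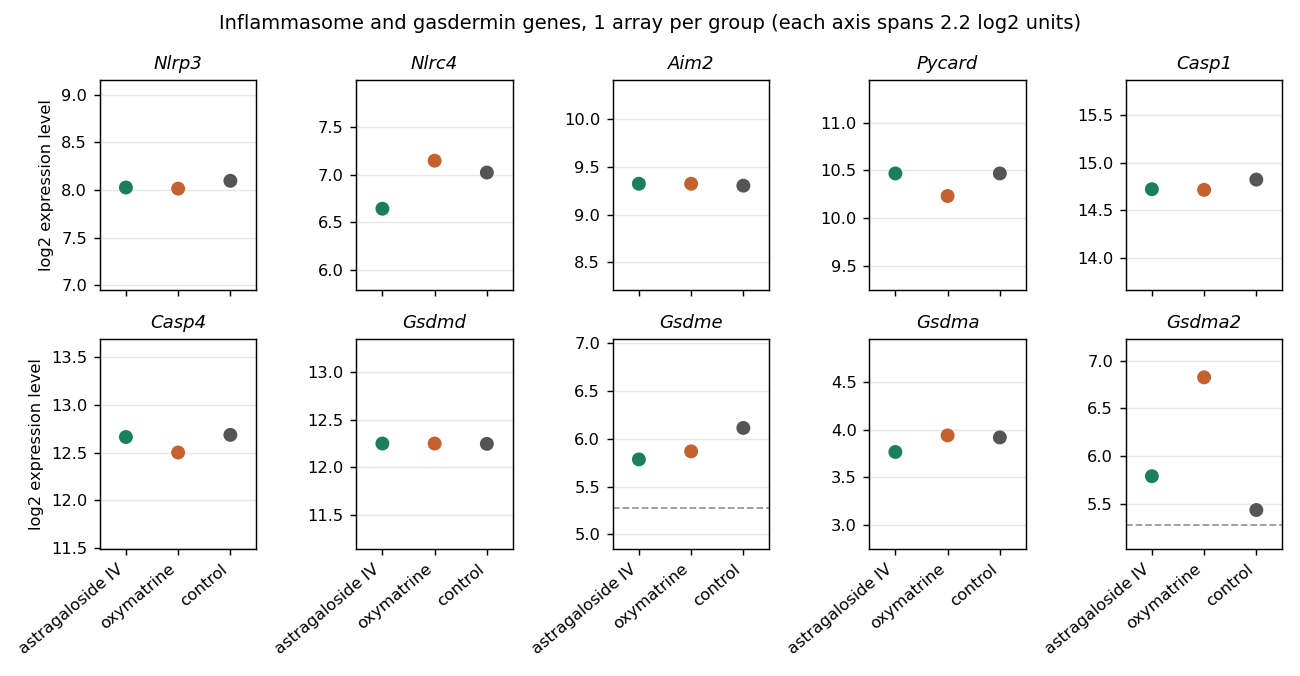
Log2 expression level of each of the 10 genes in the astragaloside IV, oxymatrine and control arrays, 1 point per array, on axes of equal span so that distances can be compared between panels. The dashed line is the background level of 5.28 where it falls within a panel, and the point for oxymatrine in the Gsdma2 panel is the one that stands apart.

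Among the sensors, Nlrp3 answers to potassium efflux and many other disturbances, Nlrc4 to bacterial flagellin and secretion systems through its NAIP partners, and Aim2 to double-stranded DNA in the cytosol. Nlrp3 was at a log2 level of 8.03 with astragaloside IV, 8.01 with oxymatrine and 8.10 in control. Both treated arrays were slightly below control, by differences of -0.07 and -0.08, well inside the SDs of 0.23 and 0.25 at that level. Aim2 was at 9.32 with astragaloside IV, 9.32 with oxymatrine and 9.30 in control, and its difference of 0.02 changed sign after centring the arrays on their medians.

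Nlrc4 had the widest span of these 3 sensor genes. Its log2 level was 6.64 with astragaloside IV, 7.15 with oxymatrine and 7.02 in control. The astragaloside IV array was the low one, with a difference from control of -0.38, or -1.47 times the SD at that level. Against oxymatrine it differed by -0.50, or -1.79 times the SD, and 45 of the 533 genes in that level bin, Nlrc4 included, lay at least as far apart. The oxymatrine array differed from control by 0.12, inside 1 SD.

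Pycard encodes ASC, the adaptor that joins sensors to caspase-1 and gathers into the speck seen in activated cells. It was at 10.47 with astragaloside IV, 10.23 with oxymatrine and 10.47 in control. Astragaloside IV and control were identical, and the oxymatrine array was lower than control by a difference of -0.24, or -1.21 times the SD.

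The 2 inflammatory caspase genes lie next to each other on chromosome 9. Casp1 encodes the caspase that matures IL-1 beta and IL-18, and Casp4, known in mice as caspase-11, encodes the caspase that binds cytosolic lipopolysaccharide and cuts gasdermin D without a sensor platform. Casp1 was at 14.72 with astragaloside IV, 14.72 with oxymatrine and 14.82 in control, so that both treated arrays were lower. Its differences of -0.10 and -0.11 were -1.26 and -0.95 times the SD, which is small among bright genes. Casp4 was at 12.66 with astragaloside IV, 12.50 with oxymatrine and 12.69 in control. There the oxymatrine array alone was lower by more than 1 SD, with a difference from control of -0.18, or -1.24 times the SD, against -0.02 for astragaloside IV. Between the treated arrays Casp4 differed by 0.16 and Casp1 by 0.01, astragaloside IV over oxymatrine, and the second of these changed sign in 1 of 3 other scalings. Casp12, the next gene along, was below background at 4.03 in each array.

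RefSeq promoter windows, from 250 bases before to 50 bases after the start of transcription, were found for 7 of the 10 genes. Those of Casp4 and Pycard are shown because these were the 2 machinery genes at which the oxymatrine array lay more than 1 SD below control, and that of Casp1 because it is Casp4's neighbour. The build is GRCm38.p6, and capitals mark matches to 4 motifs searched on both strands. The motifs were the NF-kB consensus, the core of the interferon response element GAAANNGAA, the gamma-activated site TTCNNNGAA and the PU.1 motif GAGGAAGT. The windows lie at chr9:5308599-5308898 on the plus strand, chr9:5298267-5298566 on the plus strand and chr7:127993818-127994117 on the minus strand.
Casp4: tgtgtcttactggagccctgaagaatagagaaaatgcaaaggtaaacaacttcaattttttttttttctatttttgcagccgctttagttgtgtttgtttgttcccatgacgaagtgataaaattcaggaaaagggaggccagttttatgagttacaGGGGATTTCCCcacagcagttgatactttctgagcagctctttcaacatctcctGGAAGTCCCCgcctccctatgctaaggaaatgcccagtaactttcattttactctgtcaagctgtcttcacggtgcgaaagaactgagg
Casp1: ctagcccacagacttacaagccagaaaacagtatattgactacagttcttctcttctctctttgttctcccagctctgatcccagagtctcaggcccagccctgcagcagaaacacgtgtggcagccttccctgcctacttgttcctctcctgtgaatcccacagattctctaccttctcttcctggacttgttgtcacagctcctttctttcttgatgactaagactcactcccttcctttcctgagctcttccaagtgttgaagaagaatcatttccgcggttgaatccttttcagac
Pycard: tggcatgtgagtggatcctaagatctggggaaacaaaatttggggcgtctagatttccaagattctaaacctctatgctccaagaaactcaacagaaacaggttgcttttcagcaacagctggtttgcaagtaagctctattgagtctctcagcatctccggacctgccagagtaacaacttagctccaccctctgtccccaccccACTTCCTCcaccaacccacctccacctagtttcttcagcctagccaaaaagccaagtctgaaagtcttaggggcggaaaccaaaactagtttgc
In the Casp4 window 3 overlapping matches to the NF-kB consensus made up the first capital stretch, at 93 and 92 bases before the start, the second of them on both strands. A further match stood 39 bases before it. Casp4 has a second RefSeq window, not shown, in which these matches stood 104, 103 and 50 bases before its start. The same consensus was found in 8.46% of all 32851 promoter windows in the table. The Pycard window held the PU.1 motif 44 bases before the start, on the strand opposite to the gene, a motif found in 3.20% of windows. Aim2 had the same motif 113 bases before its start, and no link between a motif and the levels was tested. The Casp1, Nlrc4 and Gsdme windows held none of the 4, and 1 of the 2 Nlrp3 windows held an NF-kB match 186 bases before its start, read on both strands. The interferon response element core and the gamma-activated site were in none of the members' windows, and in 8.56% and 8.30% of all windows. A match is a string of letters and says nothing about binding in these cells.

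Gsdmd and Gsdme are the gasdermins known from immune cells, the first cut by caspase-1 and caspase-11 and the second by caspase-3. Gsdmd was at 12.25 in each of the 3 arrays, with identical values in both treated arrays and a difference from control of 0.00 that turned negative after centring. Gsdme was at 5.79 with astragaloside IV, 5.87 with oxymatrine and 6.11 in control, close to background in all 3. Both treated arrays were lower, by differences of -0.33 and -0.25, which were -1.30 and -0.80 times the SD at that level.

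Gsdma and Gsdma2 belong to a cluster of mouse gasdermin genes, known from skin and the upper gut, for which humans have the single gene GSDMA. Gsdma2 was at a log2 level of 5.79 with astragaloside IV, 6.82 with oxymatrine and 5.43 in control. The oxymatrine array stood above both others, while the control array lay just over the 95th percentile of receptor genes in that array, 5.35. Its difference from control was 1.39 with oxymatrine, 4.53 times the SD at that level, and 0.35 with astragaloside IV, or 1.40 times. Only 1 gene of the 10671 above background had a higher difference between oxymatrine and control, and no other of the 533 genes in its level bin lay as far apart. Astragaloside IV differed from oxymatrine by -1.04 at this gene, or -4.08 times the SD.

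The near relatives of Gsdma2 were below background. Gsdma was at 3.77 with astragaloside IV, 3.94 with oxymatrine and 3.92 in control, and its oxymatrine difference of 0.02 changed sign in 3 of 3 other scalings. Gsdma3, the third gene of the cluster, was at 4.38 with astragaloside IV, 4.65 with oxymatrine and 4.52 in control. The 3 genes are close copies, so probes may be shared among their transcripts, and this was not tested because probe sequences were not used here.

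**Figure D2:**
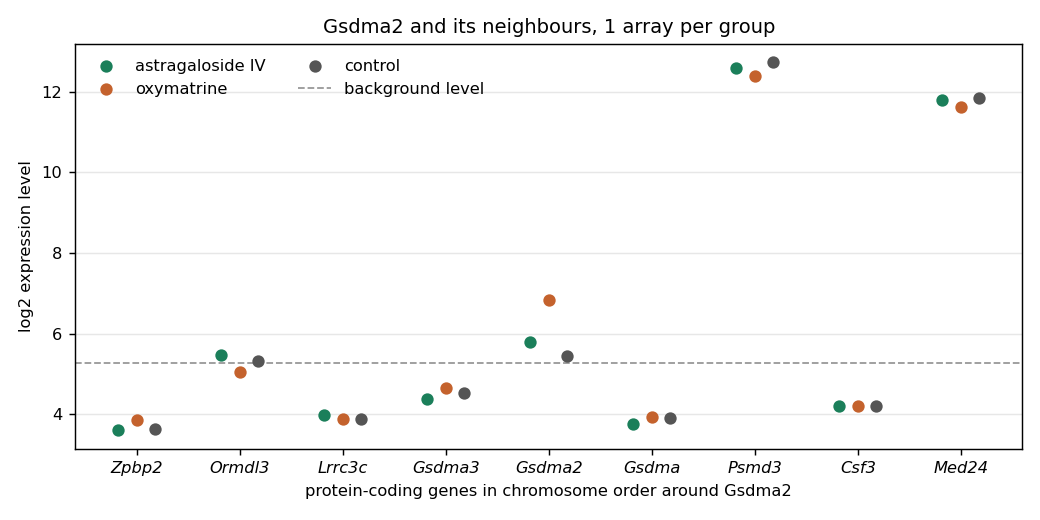
Log2 expression level of Gsdma2 and of the 4 protein-coding genes on each side of it in RefSeq's chromosome order, with 1 point for each of the astragaloside IV, oxymatrine and control arrays. The dashed line is the background level of 5.28, and Gsdma2 is the gene at which oxymatrine stands over a log2 unit above control.

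The genes that flank the cluster were looked at for their position, after the value of Gsdma2 had been seen. Psmd3, a subunit of the proteasome, and Med24, a subunit of the Mediator complex, were above background. Both were lower with oxymatrine than in control, by differences of -0.35 and -0.21. The SD of this difference was 0.15 to 0.16 for list genes of about their levels, and both differences were larger. With astragaloside IV Psmd3 and Med24 differed by -0.14 and -0.04. Csf3, the gene of granulocyte colony-stimulating factor, was below background at 4.19 in each array. Ormdl3, a regulator of sphingolipid synthesis, had a mean level just below background and an oxymatrine difference of -0.28.

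Genes above background were ranked by how near their 2 differences from control lay to those of Gsdma2, by Euclidean distance. The nearest, Ctsq, a cathepsin known from placenta, was at log2 levels of 5.24 with astragaloside IV, 6.12 with oxymatrine and 4.93 in control. It was below background in the astragaloside IV and control arrays and passed the filter on the mean through the oxymatrine array alone, so its nearness is not read as a match. Next came Il17b, a cytokine of the IL-17 family, with differences of 0.47 for astragaloside IV and 1.03 for oxymatrine, and Nkiras1, a Ras-like protein that interacts with the inhibitor of NF-kB, with 0.40 and 1.00. Both were above background in all 3 arrays, at distances of 0.38 and 0.39 log2 units from Gsdma2.

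Counted over the 9 genes above background, astragaloside IV was higher than control at 3, lower at 5 and equal at 1, against 31.4% higher, 40.8% lower and 27.7% equal of all 10671 genes. Oxymatrine was higher than control at 4, lower at 5 and equal at 0, against 29.7%, 46% and 24.4% of all genes. Exact ties were frequent: 3 of the 10 genes, and 51.6% of all genes above background, shared an identical value between 2 or more arrays. The median difference over the 9 genes was -0.02 with astragaloside IV and -0.08 with oxymatrine, and over all genes it was 0.00 in both. With astragaloside IV 0 of the 9 were 2-fold apart from control, where 0.197% of all genes were. With oxymatrine Gsdma2 was the only 1, where 0.281% of all genes were, and nothing is read from that count because this value was known when the genes were chosen. At 1.5-fold the counts were again 0 and 1, where 2.13% and 3.31% of all genes were that far apart. Both comparisons use the same control array.

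Between the treated arrays, astragaloside IV was higher than oxymatrine at 4 of the 9 genes, lower at 3 and equal at 2, against 40.7%, 32.5% and 26.7% of all genes. Pycard and Casp4 were higher with astragaloside IV, by differences of 0.24 and 0.16, which were 1.36 and 1.42 times the SD. Nlrc4 and Gsdma2 were lower with astragaloside IV, and Gsdma2 was the only gene of the 9 to be 2-fold apart, where 0.159% of all genes were. It was also the only 1 at 1.5-fold, where 2.58% were. The compounds are not related in structure and their doses are not stated, so the values stand side by side only.

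**Figure D3:**
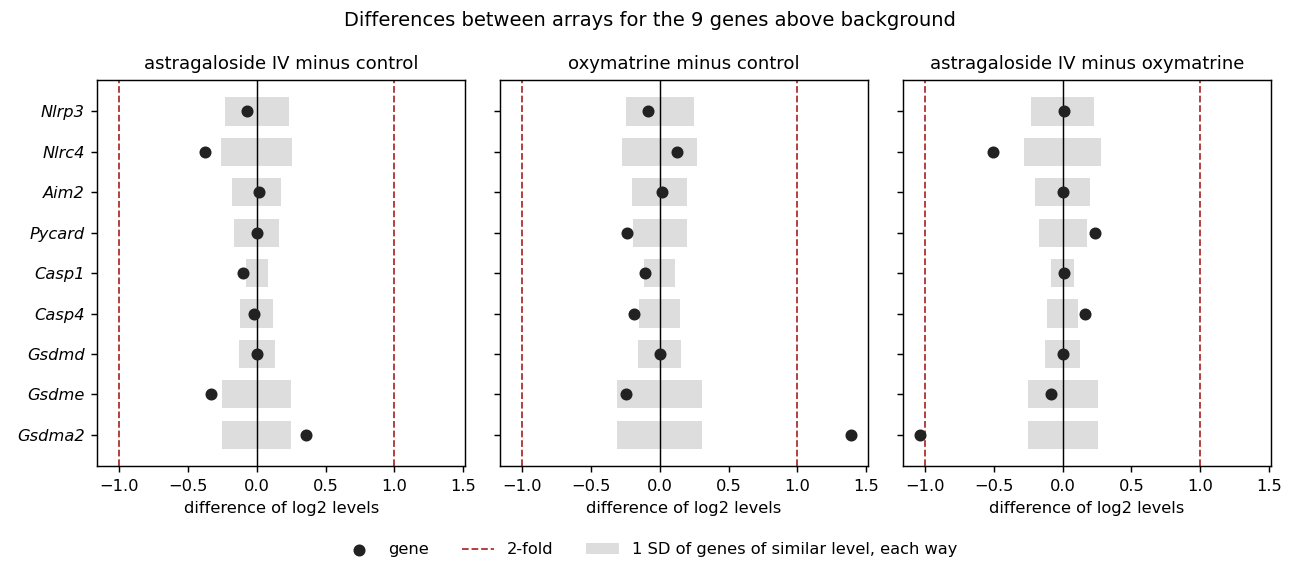
Difference of log2 levels between 2 arrays for the 9 genes above background, for astragaloside IV minus control, oxymatrine minus control and astragaloside IV minus oxymatrine. Grey bars reach 1 SD of equally bright genes to each side of 0, dashed lines mark 2-fold, and Gsdma2 is past 2-fold in both panels that include oxymatrine.

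**Figure D4:**
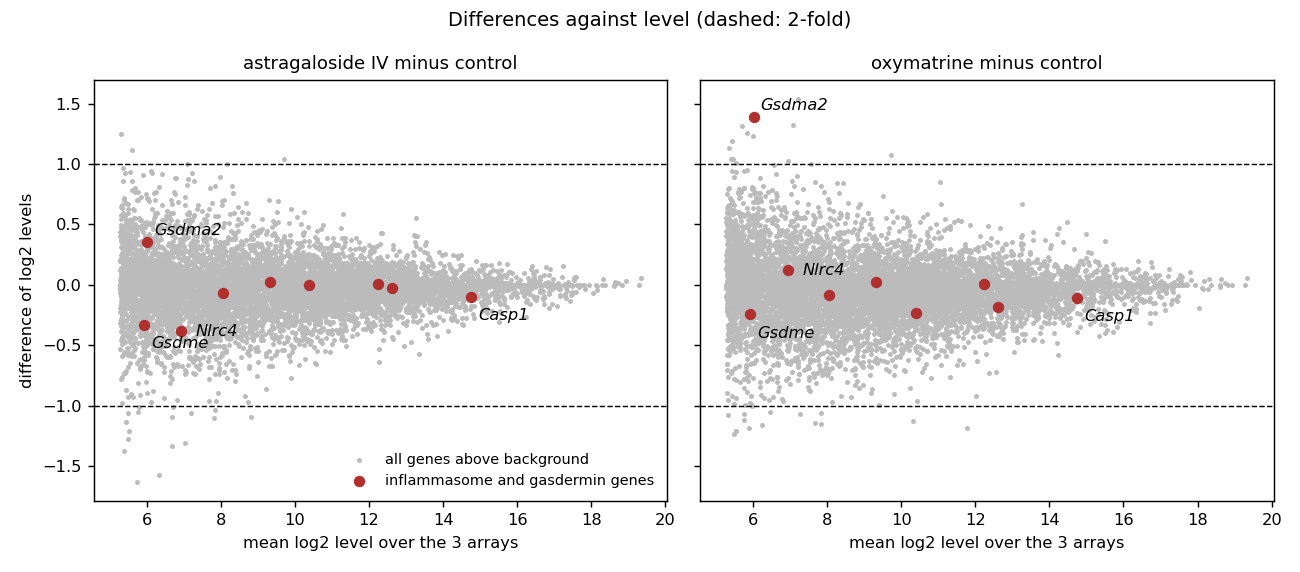
Difference of log2 levels from control against the mean log2 level over the 3 arrays, for astragaloside IV and for oxymatrine, with all 10671 genes above background in grey and the 9 inflammasome and gasdermin genes in red. Dim genes on the left scatter more widely than bright ones, and Gsdma2 lies among the dim genes.

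The pathway beyond the 10 genes was described through 11 lists with 110 genes, of which 98 were named on the array and 76 were above background. Of these 76, astragaloside IV was higher than control at 23, lower at 25 and equal at 28, against 31.4%, 40.8% and 27.7% of all genes. Oxymatrine was higher at 25, lower at 30 and equal at 21, against 29.7%, 46% and 24.4% of all genes. For astragaloside IV against control, oxymatrine against control and astragaloside IV against oxymatrine, 0 of the 76 were 2-fold apart, where 0.197%, 0.281% and 0.159% of all genes were, so these counts do not set the pathway apart from other genes. The median difference was 0.00 in each comparison, as over all genes. Among the list genes above background, marker lists included, 127 differences were 0.1 or more in size. Of these, 0 changed sign under centring, quantile normalisation or lowess centring. Centring moved each difference from control by only 0.06, less than that cut-off, so it could not have turned any of these signs.

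Of 11 other sensor genes on the array 7 were above background, and 4 of these had the same value in the astragaloside IV array as in control, where 27.7% of all genes did. For oxymatrine 5 did, where 24.4% of all genes did. Mefv, which encodes the sensor pyrin, had the largest differences from control of the 7, at log2 levels of 5.91 with astragaloside IV, 5.38 with oxymatrine and 6.27 in control. Its differences from control were -0.36 and -0.89, or -1.42 and -2.90 times the SD, and the oxymatrine value was close to background. Naip5 and Naip6, the NAIP partners that bind flagellin, were at 7.97 and 7.37 with astragaloside IV, at 7.96 and 7.37 with oxymatrine and at 7.96 and 7.37 in control. Naip2, which binds the rod protein of secretion systems, was at 10.08, 10.24 and 10.20 for astragaloside IV, oxymatrine and control. The NAIP genes are close copies of one another, so their probe sets may not be separate.

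Among 8 relatives of Aim2, Ifi208 had the lowest differences from control. They were -0.37 for astragaloside IV and -0.63 for oxymatrine, or -1.52 and -2.28 times the SD. Ifi207 was higher in both treated arrays, by 0.16 and 0.20, and Ifi213 was equal to control with astragaloside IV and higher by 0.32 with oxymatrine. The list medians were 0.00 and 0.04. RefSeq gives Pydc3 and Pydc4 as synonyms of Ifi208 and Ifi213, which placed both genes in the list of NLRP3 regulators as well.

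Genes that license or restrain NLRP3 had median differences from control of 0.00 for both compounds, and single genes lay further away. Nek7, the kinase that bridges NLRP3 subunits, was at 12.67 in each array, and Brcc3, the deubiquitinase that frees NLRP3 for activation, at 12.89 in each array. Kcnk6, a potassium channel that serves NLRP3 activation in macrophages, was at 12.40 with astragaloside IV, 12.28 with oxymatrine and 12.65 in control. Its differences from control of -0.24 and -0.37 were -1.85 and -2.37 times the SD, and 20 of the 534 genes in its level bin, Kcnk6 included, lay at least as far from control with oxymatrine. Panx1, a channel for ATP release, differed by -0.27 and -0.19. Marchf7, a ubiquitin ligase that promotes the removal of NLRP3, was higher than control by 0.18 in both treated arrays. Of the 16 regulators above background, 4 were higher and 6 lower with astragaloside IV, against 31.4% and 40.8% of all genes. With oxymatrine 4 were higher and 7 lower, against 29.7% and 46% of all genes.

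Of the other caspases, Casp9, the initiator of the mitochondrial route to apoptosis, set the treated arrays furthest apart. It was at 8.17 with astragaloside IV, 7.45 with oxymatrine and 8.02 in control, and differed between the treated arrays by 0.72, or 2.72 times the SD. The oxymatrine array was the low one, with a difference from control of -0.57, or -2.06 times the SD. Casp2 was higher in both treated arrays, by 0.44 and 0.30, or 2.65 and 1.52 times the SD, and Casp6 differed from control by -0.39 in both. Casp8, which can cut gasdermin D and also restrains necroptosis, was at 15.60 with astragaloside IV, 15.45 with oxymatrine and 15.69 in control, with differences from control of -1.15 and -2.15 times the SD. The median over these 4 caspase genes was 0.03 with astragaloside IV and -0.32 with oxymatrine, and the oxymatrine value was -0.12 when genes below background were kept.

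The cytokines that caspase-1 matures lay within 1 SD of control. Il1b was at 15.29 with astragaloside IV, 15.21 with oxymatrine and 15.23 in control, and its difference of 0.06 with astragaloside IV changed sign after centring. Il18 was at 8.85 with astragaloside IV, 8.54 with oxymatrine and 8.75 in control, so that it differed by 0.31 between the treated arrays. Il1a, whose product is active without caspase-1, was at 9.83 with astragaloside IV, 9.99 with oxymatrine and 10.50 in control. Its differences from control of -0.67 and -0.51 were the lowest of its list, at -4.06 and -2.59 times the SD, and no other of the 534 genes in its level bin lay as far from control with astragaloside IV. Il1rn, the natural antagonist of the IL-1 receptor, was at 15.50 in each array, and Il18bp, the soluble antagonist of IL-18, differed by -0.17 with astragaloside IV and was equal to control with oxymatrine. Il1f9, the gene of IL-36 gamma, was at 5.85, 5.85 and 5.82 for astragaloside IV, oxymatrine and control, near background.

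The 6 receptor genes of the IL-1 family above background lay within 0.10 of control. Il1r1, the receptor for both forms of IL-1, was equal to control with astragaloside IV and differed by -0.10 with oxymatrine, and Il1rl2, the receptor for IL-36, was higher by 0.08 in both. The list for the cytosolic lipopolysaccharide route held 12 genes, of which 10 were named on the array and above background. They were the guanylate-binding protein genes Gbp2, Gbp3, Gbp4, Gbp7, Gbp8 and Gbp9, whose products expose lipopolysaccharide to caspase-11, with Gm12250, Irf1, Irf2 and Ticam1. Gbp2 was at 13.71 with astragaloside IV, 13.42 with oxymatrine and 13.38 in control, with a difference from control of 0.33 for astragaloside IV, or 3.12 times the SD. Gbp9 was higher by 0.19 with oxymatrine, and Gbp3 differed by -0.07 and -0.12. The medians over the 10 genes were 0.00 and 0.01.

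Downstream of the pore, Ninj1, whose product ruptures the plasma membrane at the end of lytic death, was at 14.21 with astragaloside IV, 14.21 with oxymatrine and 14.32 in control. It was the only gene above background of the 7 further gasdermin and pore-linked genes, as Gsdma3, the 4 Gsdmc genes on the array and Pjvk were below it. The ESCRT-III machinery, which pinches off membrane holed by gasdermin, had 13 of 14 genes above background, with medians of 0.00 with astragaloside IV and -0.01 with oxymatrine. Pdcd6, the calcium sensor that recruits it, differed by -0.21 in both treated arrays, and Chmp1b by -0.05 and -0.24. Chmp2b was equal to control with astragaloside IV and higher by 0.16 with oxymatrine, and Vps4a was higher by 0.06 in both, a sign that turned after centring.

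Ripk3, the kinase that starts necroptosis, was higher in both treated arrays, at 10.33 with astragaloside IV, 10.41 with oxymatrine and 9.92 in control. Its differences were 0.41 and 0.49, the second of them 2.53 times the SD. Fadd, the adaptor that joins death receptors to caspase-8, differed by -0.09 and -0.40. Of the granule proteases that cut gasdermins, Gzmb, which plasmacytoid dendritic cells are known to make, was at 8.99 with astragaloside IV, 8.73 with oxymatrine and 8.99 in control. Gzma was at 6.03 in each array, and Elane and Ctsg were below background.

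**Figure D5:**
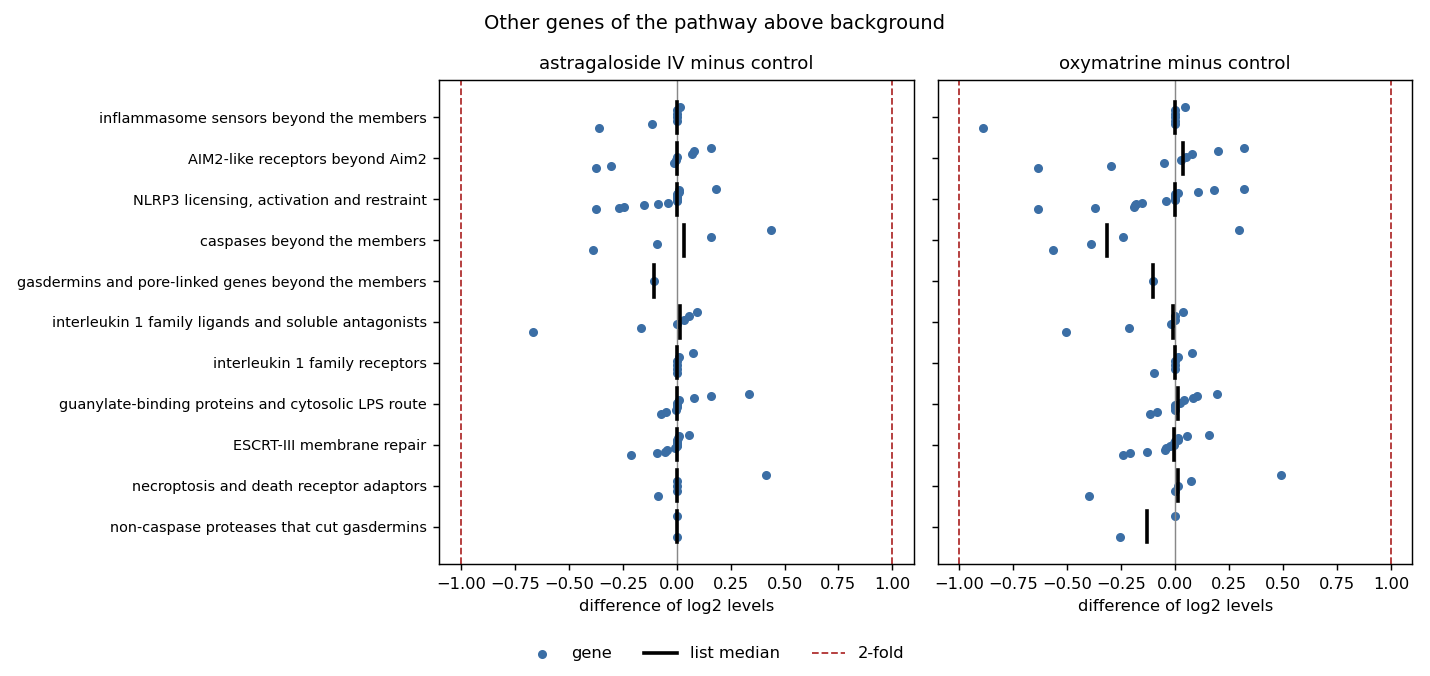
Difference of log2 levels from control for each gene above background in the 11 pathway lists, for astragaloside IV and for oxymatrine, with 1 point per gene, a black bar at each list median and dashed lines at 2-fold. All points lie inside the 2-fold lines, and most list medians are at or near 0.

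Inflammasome genes are used by several myeloid cells, so markers of other cell types were set beside them. Of 14 plasmacytoid dendritic cell markers 13 were above background, and their mean log2 level was 10.60 with astragaloside IV, 10.60 with oxymatrine and 10.70 in control. All 10 monocyte and macrophage markers on the array were above background too, with means of 10.78, 10.73 and 10.82 for astragaloside IV, oxymatrine and control. Of 12 neutrophil markers 3 were, with means of 10.16, 10.46 and 10.58 in the same order, and S100a8, S100a9, Mpo and Elane were below background. Of 11 markers of keratinocytes and surface epithelium, where Gsdma genes are best known, only Cdh1 was above background, at 6.20 with astragaloside IV, 6.17 with oxymatrine and 6.44 in control, and the keratin genes were all below it. Of 12 conventional dendritic cell markers 9 were above background, with means of 8.62, 8.59 and 8.74, and of 9 T and NK cell markers 4 were, with means of 6.85, 6.89 and 7.16, again for astragaloside IV, oxymatrine and control. Over the markers above background, the neutrophil means and the T and NK means were lowest with astragaloside IV and highest in control. Over all 12 neutrophil markers the means were 5.69 with astragaloside IV, 5.89 with oxymatrine and 5.83 in control, and over all 9 T and NK markers 5.19, 5.30 and 5.36, most of these genes being below background. The part of other cells in the values of Nlrc4, or of any other of the 10 genes, was not tested. Fewer cells of a type and less RNA per cell cannot be told apart in these bulk samples.

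Single markers differed by more than their list means. Il2rb, a receptor chain for IL-2 and IL-15, was at 6.32 with astragaloside IV, 6.48 with oxymatrine and 7.33 in control, and its astragaloside IV difference of -1.01 was past 2-fold. Cd4, in the same list, was higher in both treated arrays, by 0.24 and 0.23. Of the neutrophil markers, Lcn2, an iron-scavenging protein of granules, was at 12.71 with astragaloside IV, 12.94 with oxymatrine and 13.21 in control. It differed from control by -0.51 and -0.27, or -4.25 and -1.84 times the SD, and Mmp8 by -0.26 and 0.00. Csf3r, the receptor for granulocyte colony-stimulating factor, was lower with astragaloside IV than with oxymatrine by a difference of -0.39. Of the conventional dendritic cell markers, Itgae differed from control by -0.73 and -0.49, and Zbtb46 by 0.14 and 0.27. Irf4 was 0.59 higher with astragaloside IV than with oxymatrine. Of the plasmacytoid dendritic cell markers, Spib was equal to control with astragaloside IV and differed by -0.48 with oxymatrine, Ly6d differed by -0.30 in both, and Lag3 by -0.21 between astragaloside IV and oxymatrine. Of the macrophage markers, Mertk differed from control by -0.27 and -0.45 and Fcgr1 by 0.13 with astragaloside IV, and Adgre1 differed by -0.14 between the treated arrays. These values are descriptions of single arrays, like those of the 10 genes.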

How the data were processed

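Total RNA of 3 samples was hybridised to 1 whole-transcript array each. The deposited log2 values were made by the authors with RMA, per the submitters' processing notes. No source used here names the software or a genome build, and base 2 was inferred from values between 1.78 and 19.7. Many genes have identical values in 2 or more arrays, at a share given in the results. The number of arrays limits the precision.

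Probe sets were named through the platform annotation of 2019, in which 19572 of 28846 had 1 symbol, 0 several and 9274 none. Each member had 1 probe set and matched the RefSeq gene table by symbol and Entrez identifier. Other genes with more than 1 probe set were represented by the brightest. Differences were taken between deposited values, with SDs from 20 level bins. The members, lists and thresholds were chosen with earlier results of these data known. The text names the members, and of each list the highest and lowest genes in a comparison, apart from some within 0.1 of 0. Further list genes, among them Kcnk6, Panx1, Nek7, Brcc3 and Casp8, were named outside this rule, while other genes of the same lists are not described. The calculations were tested on simulated data. Promoter sequences are RefSeq's, build GRCm38.p6. Python 3.11.15, numpy 2.4.6, pandas 2.3.3, statsmodels 0.14.6 and matplotlib 3.10.9 were used.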

Additional observations from a re-analysis of the deposited data

How the results depend on the processing

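No replicate could be left out and no test exists, since each group had 1 array. No paired analysis was possible because each group had 1 array, so no pair of groups shares a second replicate number. The 30 differences of the 10 members moved by less than the SD of genes of similar level (for Gsdma, by less than 0.1) under centring on the array median, quantile normalisation and lowess centring. Averaging over probe sets could not move them, as each member had 1 probe set. Over the 3 scalings the oxymatrine difference of Gsdma2 from control ranged between 1.33 and 1.39 and its astragaloside IV difference between 0.29 and 0.35. Signs turned in at least 1 scaling for Aim2 and Gsdmd against control, Gsdma with oxymatrine, and Nlrp3 and Casp1 between the treated arrays, all of them differences under 0.03 in size. At 3-fold 0 members were past the threshold with oxymatrine against control and 0 between the treated arrays. The same 9 members passed the level filter at the 90th and 99th percentile, the 99th being a level of 5.88. Gsdma2 passed the 99th through its oxymatrine value alone, as its levels with astragaloside IV and in control, 5.79 and 5.43, were below it. Gsdme passed it through its control value of 6.11 alone, as its levels with astragaloside IV and oxymatrine, 5.79 and 5.87, were below it.

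The counts of all genes, 21 with astragaloside IV, 30 with oxymatrine and 17 between the treated arrays at 2-fold, depend on the threshold and filter. They were 227, 353 and 275 at 1.5-fold, 1, 0 and 1 at 3-fold, 11, 17 and 9 with the 99th percentile filter, and 79, 90 and 82 with no level filter. Of the 30 oxymatrine genes 14 were higher and 16 lower, against 9 and 29 after centring and 10 and 24 after quantile normalisation. Of the 21 astragaloside IV genes 4 were higher and 17 lower, against 2 and 23 after centring. Of 231 list values under alternatives 8 moved by 0.1 or more. By the mean, the IL-1 family ligands were at -0.11 with astragaloside IV and -0.12 with oxymatrine, the other sensors at -0.12 with oxymatrine, and the caspases at 0.25 between the treated arrays. With no level filter, the oxymatrine medians were -0.12 for caspases, 0.00 for gasdermin and pore-linked genes and 0.026 for gasdermin-cutting proteases, which were at -0.026 between the treated arrays. Fewer or more genes enter under another filter. The causes were otherwise not tested.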
